A study of Mus musculus with 2 samples.

Results

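The genes described here are 10 genes of osteoclast differentiation, *Acp5*, *Ctsk*, *Mmp9*, *Dcstamp*, *Ocstamp*, *Nfatc1*, *Tnfrsf11a*, *Atp6v0d2*, *Oscar* and *Itgb3*, taken by symbol from the 32524 genes of the count tables. All 10 were found, each under 1 gene identifier, and all were followed through every cell that had 500 genes or more and no more than 10% mitochondrial UMIs (unique molecular identifiers, each standing for 1 captured transcript). CD45+CD11b+ cells, a gate for myeloid cells, had been sorted from the synovium of the hind paws of arthritic C57BL/6 mice, 7 to 10 weeks old at the start, on day 17 after arthritis induction. The mice had received an intraperitoneal injection of 1 mg β-glucan, the agonist used to train innate immunity, or PBS as control 7 days before arthritis was induced. The series' design text and the study's methods give K/BxN serum transfer arthritis as the model for both groups. The study's figure legends for this experiment also give it, with 17 days of arthritis. The sample labels instead describe arthritis raised with monoclonal antibodies to collagen followed by lipopolysaccharide, and this difference is not explained in the sources used here. Each group was 1 droplet library from 4 pooled mice, and no label ties a cell to its mouse, so 2 libraries are described side by side and no p-value is given.

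Osteoclasts are the cells that resorb bone. They arise when mononuclear precursors of the myeloid lineage meet the cytokine RANKL, whose receptor RANK is encoded by *Tnfrsf11a*. RANK signalling, together with costimulation through receptors such as that encoded by *Oscar*, leads to the induction of NFATc1 (*Nfatc1*), the master transcription factor of the lineage. NFATc1 switches on the genes for cell fusion (*Dcstamp*, *Ocstamp*, *Atp6v0d2*), for attachment to bone (*Itgb3*, the β3 chain of the vitronectin receptor) and for resorption (*Acp5*, encoding tartrate-resistant acid phosphatase, *Ctsk*, encoding cathepsin K, and *Mmp9*, encoding a gelatinase). In an inflamed joint, osteoclasts sit on bone and pannus, and their precursors are looked for among synovial and blood-borne myeloid cells.

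The β-glucan library held 7196 barcodes and 81611849 UMIs, and 5696 cells passed the filter, with a median of 12457.5 UMIs. The PBS library held 5760 barcodes and 73874602 UMIs, and 4553 cells passed, with a median of 14475 UMIs. Clustering without the 10 genes and without the longer pathway list described below gave 21 clusters. The main myeloid cell compartment, made of the macrophage-like and antigen-presenting-cell (APC)-like clusters and 3 unnamed clusters (0, 3 and 10), held 4593 β-glucan cells (80.6%) and 3618 PBS cells (79.5%). The sort also held B cell-like, neutrophil-like, stromal-like, mast-like, T cell-like, NK cell-like, proliferating-like, monocyte-like and endothelial-like cells, and cluster 17, led by *Arg1* and *Slc7a2*, was 79 PBS cells and 0 β-glucan cells. Levels are in CPM, the UMIs of a gene per 1000000 UMIs of the same cells, and every interval is an exact 95% interval that covers counting error only.

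The promoters of the fusion genes are shown because GGAAA, the core of the sites that NFAT proteins bind, can be read in them. It was looked for on both strands in the 250 bases before the start of each gene's canonical transcript on GRCm39, with transcripts from GENCODE vM39. For *Acp5*, *Ctsk*, *Mmp9*, *Nfatc1*, *Tnfrsf11a* and *Oscar* this start lies within the gene as annotated, so part or all of the window does too, and for the genes printed here the start is also that of the gene. A match is a description of letters and not a binding site. Of 21770 promoters of this length, 58.0% held a match, and so did 7 of the 10 genes, with 4 matches in *Dcstamp*, 3 in *Oscar*, 2 each in *Ctsk*, *Mmp9* and *Ocstamp*, and 1 each in *Nfatc1* and *Atp6v0d2*. The windows below are written along the gene's strand, with the match in capitals (TTTCC where it lies on the opposite strand).
*Dcstamp*, plus strand, chr15:39609034-39609062, starting 168 bases before the gene: ggtgagcagggaGGAAAaagggaaggaag
*Dcstamp*, chr15:39609111-39609139, 91 bases before: cctattatgttaTTTCCtagggttaatgt
*Dcstamp*, chr15:39609132-39609160, 70 bases before: gttaatgtctaaGGAAAgtgctggaatga
*Dcstamp*, chr15:39609164-39609192, 38 bases before: ctgtggctccttTTTCCagtttttaccct
*Ocstamp*, minus strand, chr2:165242475-165242503, 155 bases before: ggctagttctacTTTCCtgccctcagggt
*Ocstamp*, chr2:165242444-165242472, 124 bases before: cgggcactgcttGGAAAgtgtgtctccct
*Atp6v0d2*, minus strand, chr4:19922805-19922833, 207 bases before: atgtactaatgtGGAAAaggtatatttac
Distances are those of the capitals. The E-boxes CACGTG and CATGTG, letters that MITF can bind, were in 6.26% and 10.5% of promoters and in 0 and 1 of the 10 (*Oscar*). The letters GAGGAAG, of the kind bound by PU.1, were in 10.3% of promoters and in 2 of the 10 (*Ocstamp* and *Oscar*). No test was made on 10 promoters.

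The genes are spread over the genome of GRCm39, and UMIs were counted over whole genes, not sites within them. *Acp5* (ENSMUSG00000001348) lies on chromosome 9 from 22038023 to 22049355 and *Ctsk* (ENSMUSG00000028111) on chromosome 3 from 95406178 to 95416732. *Mmp9* (ENSMUSG00000017737) lies on chromosome 2 from 164780439 to 164797771 and *Dcstamp* (ENSMUSG00000022303) on chromosome 15 from 39609214 to 39624334. *Ocstamp* (ENSMUSG00000027670) lies on chromosome 2 from 165235680 to 165242336 and *Nfatc1* (ENSMUSG00000033016) on chromosome 18 from 80649266 to 80756295. *Tnfrsf11a* (ENSMUSG00000026321) lies on chromosome 1 from 105708358 to 105777170 and *Atp6v0d2* (ENSMUSG00000028238) on chromosome 4 from 19876838 to 19922614. *Oscar* (ENSMUSG00000054594) lies on chromosome 7 from 3612812 to 3620861 and *Itgb3* (ENSMUSG00000020689) on chromosome 11 from 104498826 to 104561302. *Mmp9* and *Ocstamp* share chromosome 2. Genes on the opposite strand overlap *Acp5*, *Dcstamp*, *Nfatc1*, *Atp6v0d2* and *Oscar*, and *Gm70609* overlaps *Tnfrsf11a* on its own strand.

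The first question was how many cells hold the UMIs of each gene. The genes fell into broad and narrow patterns. UMIs of *Tnfrsf11a* and *Nfatc1* were spread over most cells, whereas those of the genes that act late in osteoclasts sat in few cells, and those of *Acp5* in very few.

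*Tnfrsf11a*, the receptor, had 39304 UMIs in 7507 of the 10249 cells (73.2%), in 4267 β-glucan cells (74.9%) and 3240 PBS cells (71.2%). The fewest cells that held 50% of its UMIs were 1629, and no cell had more than 45. *Nfatc1* had 13024 UMIs in 6134 cells (59.8%), in 3432 (60.3%) and 2702 (59.3%) of the libraries, and 50% of them needed 1504 cells. Both genes thus had a UMI in most cells of either library. By class, *Tnfrsf11a* was found in 85.3% of the cells of the compartment and 11.6% of B cell-like cells, and *Nfatc1* in 61.0% and 51.9%, at a median of 14062 and 5700.5 UMIs per cell.

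*Acp5* had 3819 UMIs in 1194 cells (11.6%), 631 of them β-glucan cells and 563 PBS cells, and 794 of the 1194 had a single UMI. Just 11 cells held 50% of its UMIs. The concentration was that of the PBS library, where 4 cells held 50% of 2650 UMIs, while 130 cells were needed for 50% of the 1169 UMIs of the β-glucan library. The highest cells had 573 and 532 *Acp5* UMIs, both with PBS. *Ctsk* had 20280 UMIs in 1578 cells (15.4%), 9675 UMIs in 875 β-glucan cells and 10605 in 703 PBS cells, and 154 cells held 50%. *Mmp9* had 2806 UMIs in 494 cells (4.82%), 1133 UMIs in 285 β-glucan cells and 1673 in 209 PBS cells, and 66 cells held 50%. Again the PBS library was the more concentrated, since its 10 highest cells held 45.4% of its *Mmp9* UMIs against 13.5% with β-glucan.

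*Dcstamp*, which encodes a fusion protein of the precursor membrane, had 2083 UMIs in 327 cells (3.19%), 661 UMIs in 130 β-glucan cells and 1422 in 197 PBS cells, with 50% in 34 cells. *Atp6v0d2*, which encodes a subunit of the proton pump that is also needed for fusion, had 2359 UMIs in 727 cells (7.09%), 1309 UMIs in 428 β-glucan cells and 1050 in 299 PBS cells, with 50% in 91 cells. Both were narrow too: *Dcstamp* was in fewer cells than *Mmp9*, and *Atp6v0d2* lay between *Mmp9* and *Ctsk*. *Itgb3* had 448 UMIs in 280 cells (2.73%), 199 in 136 and 249 in 144. *Ocstamp*, the relative of *Dcstamp*, had 135 UMIs in 80 cells (0.781%), 48 in 37 and 87 in 43. *Oscar*, the costimulatory receptor, had 26 UMIs in 16 cells (0.156%), 7 UMIs in 6 β-glucan cells and 19 in 10 PBS cells, and 3 cells held 50%. For *Ocstamp* and *Oscar* the depth is too low to describe more than the cells that hold them.

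**Figure D1:**
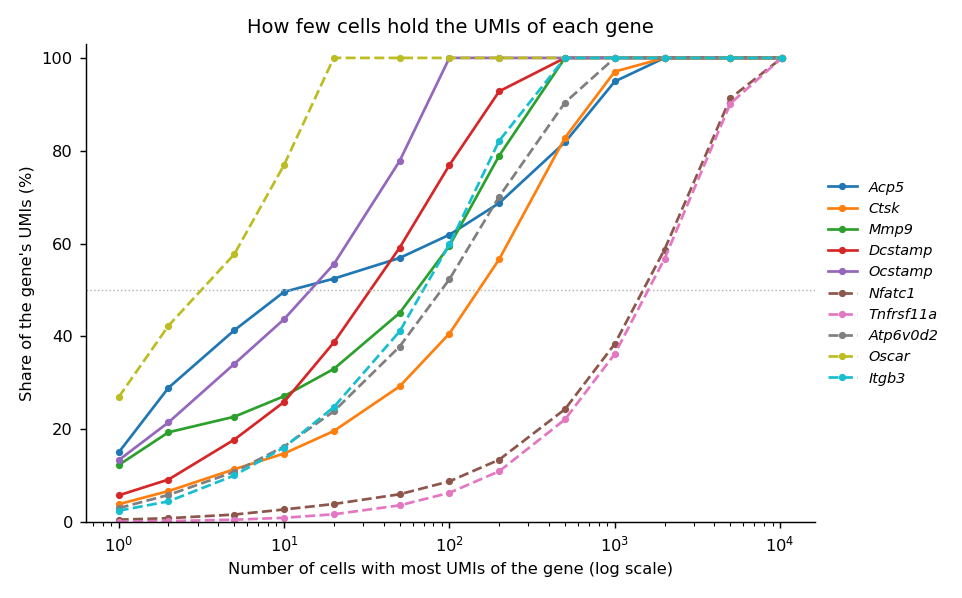
Share of a gene's UMIs (y axis, %) held by the cells with most UMIs of that gene (x axis, number of cells, log scale), both libraries together, 1 line per gene, with a dotted line at 50%. The lines of *Nfatc1* and *Tnfrsf11a* rise last, whereas 10 cells already hold 49.6% of *Acp5* UMIs and 76.9% of *Oscar* UMIs.

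The *Acp5* UMIs per cell left a gap between 16, the most in any cell below it, and 39, and 10 cells lay above it. The limit of 30 UMIs that sets these *Acp5*-rich cells apart was chosen after the values had been seen, so their *Acp5* level is a description. They were 8 of 4553 PBS cells (0.176%, 0.0759% to 0.346%) and 2 of 5696 β-glucan cells (0.0351%, 0.00425% to 0.127%), and the intervals of the 2 shares overlap. They were spread over clusters: 5 lay in cluster 1, 2 in the proliferating-like cluster 15 and 1 each in clusters 0, 7 and 18. The clustering used 20 neighbours and left out the 10 genes and the pathway list. Why these 10 cells did not form a cluster was not tested. As 8 of the *Acp5*-rich cells are in the compartment and 2 are not, they are given together here by cell.

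Their *Acp5* UMIs were 573, 532, 185, 160, 128, 73, 45 and 39 in the PBS cells and 116 and 43 in the β-glucan cells. Every one of the 10 also held *Ctsk*, with 781, 422, 342, 575, 86, 112, 51 and 14 UMIs in the PBS cells in the same order and 159 and 14 in the β-glucan cells. Every one held *Nfatc1* (12 to 69 UMIs), *Tnfrsf11a* (3 to 34) and *Atp6v0d2* (6 to 71). The late genes therefore occurred together under single cell barcodes with the receptor and the transcription factor. *Mmp9* was narrower, in 7 of the 10, with 345 and 198 UMIs in the 2 cells highest in *Acp5* and at most 24 in the others. *Dcstamp* was in 5 of the 10 (at most 10 UMIs), *Ocstamp* in 3 (18, 7 and 6), *Oscar* in 4 (7, 4, 1 and 1) and *Itgb3* in 3 (11, 9 and 6). All 10 genes were found at once in 2 cells, the 2 highest in *Acp5*, and in no other of the 10249 cells. The cell with 573 *Acp5* UMIs lay in cluster 18 with 67536 UMIs in all. It was among the cells of highest Scrublet score, a score of likely doublets. The cell with 532 *Acp5* UMIs lay in cluster 1 with 21105 UMIs and was not among them.

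**Figure D2:**
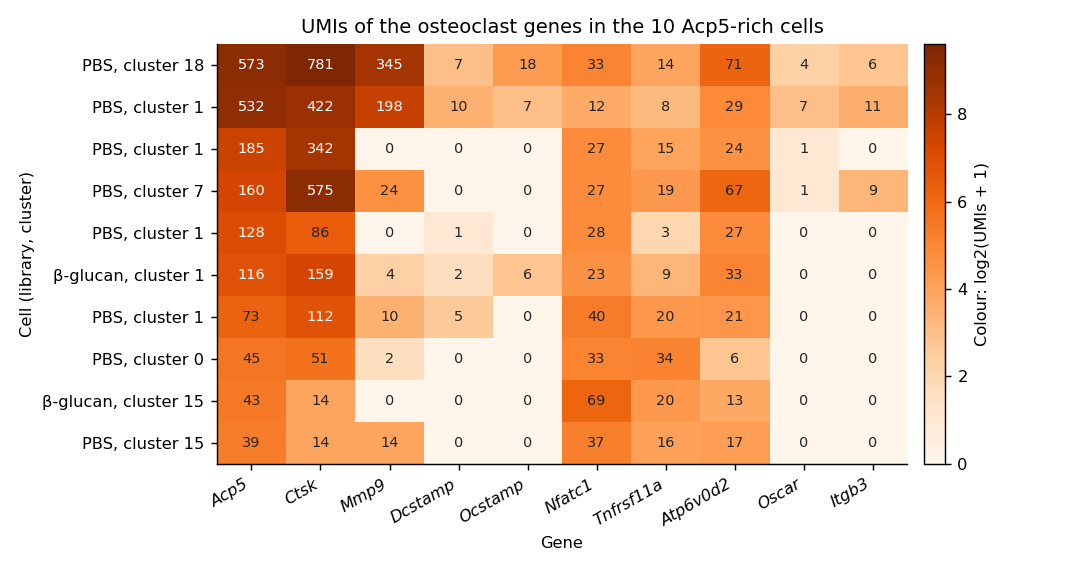
UMIs of the 10 genes (columns) in the 10 *Acp5*-rich cells (rows, named by library and cluster, ordered by *Acp5*), with the count written in each field and the colour giving log2(UMIs + 1). *Acp5*, *Ctsk*, *Nfatc1*, *Tnfrsf11a* and *Atp6v0d2* are filled in all 10 cells, and the top 2 cells, both of the PBS library, are filled throughout. The top cell was among the cells of highest Scrublet score.

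In the summed UMIs of the *Acp5*-rich cells, *Nfatc1* was at 756 CPM against 80.9 in the rest of the compartment, *Atp6v0d2* at 708 against 14.3, *Ctsk* at 5877 against 119, and *Mmp9* at 1373 against 0.858. *Tnfrsf11a* was at 363 against 292, a log2 ratio of 0.32 (0.08 to 0.54), so the receptor's level was close to that of the other myeloid cells. Of the pathway list of 55 further genes, 52 averaged 5 CPM or more between the 2 sets of cells, of which 15 were higher than in the rest of the compartment and 22 lower, with the interval on that side of 0, against 21.0% and 20.4% of 10003 genes. *Car2*, *Siglec15* and *Src*, among the 15, were below 5 CPM in the rest of the compartment. They reached the mean through the *Acp5*-rich cells alone and could be counted higher only. As the cells were chosen by *Acp5*, these counts are a description of them. In the acid and resorption machinery 5 of 10 genes were higher, 2 were lower and 3 had an interval that included 0. The higher ones included *Tcirg1*, a proton pump subunit (271 against 72.1 CPM), *Car2*, the carbonic anhydrase that supplies protons (18.4 against 0.136, from 8 UMIs in 3 cells), and *Mmp14*, a membrane-bound matrix metalloproteinase (593 against 61.3). Of the 8 inhibitors of osteoclast differentiation on the list, 0 were higher and 5 were lower, such as *Rbpj* (182 against 959 CPM) and *Nr4a1* (11.5 against 67.3), and the intervals of the other 3 included 0.

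By the same intervals, 2 of 14 signalling genes were higher and 6 lower, and of 8 receptors and adaptors 3 and 4. Of 7 transcription factors 4 were higher and 3 lower, and of 4 fusion genes 0 and 2. The kinase gene *Src*, 1 of the 2 higher signalling genes and needed for the ruffled border, was at 140 CPM against 2.29, in 9 of the 10 cells. Among transcription factors, *Jdp2* (855 against 55.0 CPM), *Prdm1*, which represses inhibitors of the lineage (175 against 5.11), and *Ppargc1b* (189 against 33.8) were higher, and *Mef2c* (82.8 against 444) and *Mitf* (304 against 519) were lower. *Siglec15*, a receptor of late osteoclast differentiation, had 5 UMIs in 3 of the cells, at 11.5 against 0.0321 CPM. Outside the list and chosen after its values had been seen, *Slc9b2*, a sodium/proton exchanger known from osteoclasts, was present in all 10 cells, at 354 against 1.33 CPM. Of the macrophage genes *Lyz2* and *C1qb*, also chosen after their values had been seen, *Lyz2* was at 1996 against 11362 CPM and *C1qb* at 579 against 2436. Most of these UMIs, 811 of *Lyz2* and 243 of *C1qb*, were of the 2 cells of high Scrublet score described next, and the other 8 cells stood at 189 and 29.8 CPM. *Csf1r*, of the fixed macrophage markers, was at 894 against 959 CPM, in all 10 cells, with an interval that included 0. Of other myeloid genes on the pathway list, *Tyrobp* (1283 against 1065 CPM) and *Spi1* (602 against 394) were higher. *Trem2* (310 against 554 CPM) and *Fcer1g* (687 against 1225) were lower.

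The *Acp5*-rich cells had more UMIs and a higher mitochondrial share than cells of the compartment. They were chosen by a count of UMIs and not by a share of them. This rule favours deep cells, so the depth of the *Acp5*-rich cells is a description. Their median was 41179.5 UMIs (21105 to 68325) against 14062 in the compartment, their median mitochondrial share was 6.04% against 3.21%, and 2 of the 10 were among the cells of highest Scrublet score, a score of likely doublets. All 9 macrophage markers were detected in them, with a summed level from 542 to 11960 CPM and a median of 1238, against a compartment median of 10686. APC markers were at a median of 467 against 182 CPM (8 of 9 detected, *Cd209a* at 0), and monocyte markers at 10.8 against 1342 (3 of 6 detected, with *Ly6c2*, *Plac8* and *Chil3* at 0). The T cell, endothelial and platelet markers were all at 0, and of the neutrophil list 5 of 7 were detected, at 0 to 1650 CPM with a median of 0. Stromal markers were at a median of 20.6 against 0 CPM (5 of 7 detected, at most 94.8). Proliferating markers were at a median of 28.4 against 0 CPM (6 of 6 detected, at most 2856). Detected as well were 3 of 9 basophil or mast cell, 1 of 6 NK cell and 1 of 6 B cell markers. The part of doublets in these cells was not tested. No list of osteoclast markers was among those used to name cells, and the cells are called here by their gene only.

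Next, levels were set out by cluster, where each cluster's value sums both libraries. *Tnfrsf11a* was highest in clusters of the compartment. It stood at 367 CPM in cluster 10 (led by *Ccl4* and *Plac8*), 362 in cluster 0 (*Vsig4*, *S100b*), 354 in cluster 6 (*Olr1*, *Spp1*), 344 in cluster 3 (*H2-Aa*, *H2-Eb1*) and 325 in cluster 4 (*Gpnmb*, *Apoe*). Neighbours in this order had overlapping intervals. In cluster 0, 1152 of 1206 cells (95.5%) had a UMI. The level was 162 CPM in the APC-like cluster 5 (*Ccl17*, *Cd209a*), 66.9 in B cell-like cells (66 of 570 cells, 11.6%) and lowest in stromal-like cells, at 19.8 CPM (25 of 231 cells, 10.8%). With *Gm70609* on its strand, the count of *Tnfrsf11a* is uncertain. The genes whose levels followed it most closely over the 21 clusters were *Kcnk13* and *P2ry6* (Pearson correlation of log2(CPM + 1) of 0.968 each) and *Rbm47* (0.965), with libraries and depth shared between the points.

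*Nfatc1* varied little. Its highest level was 156 CPM (133 to 182) in the T cell-like cluster 16, followed by 138 in mast-like, 134 in NK cell-like, 133 in T cell-like (cluster 13) and 130 in B cell-like cells, with overlapping intervals throughout this order. The macrophage-like clusters 1, 2, 4, 6 and 7 lay from 82.6 to 101 CPM, cluster 5 stood at 52.9 and cluster 17 was lowest, at 45.1. Lymphocytes are known to use NFATc1 after antigen receptor signals. In the compartment cluster 10 was highest, at 122 CPM (109 to 135). *Ccdc117* (0.880), *Oga* (0.863) and *A730081D07Rik* (0.858) followed *Nfatc1* most closely over the clusters.

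The resorption genes each had a different cell type beside the *Acp5*-rich cells. *Acp5* was highest in the APC-like cluster 18 (*Ccl22*, *Clec9a*) at 387 CPM, yet 573 of its 582 UMIs were of 1 cell, and 6.27 CPM remained without that cell. Cluster 1 (led by the muscle genes *Tnnc2* and *Acta1*) stood at 68.6 CPM and at 6.65 without its 5 *Acp5*-rich cells. The B cell-like cells, which had been set as the class that should lack these genes, followed a different pattern: 263 of 570 cells (46.1%, 42.0% to 50.3%) had an *Acp5* UMI, at most 8 in a cell, at 91.5 CPM (β-glucan) and 110 CPM (PBS). NK cell-like cells were like them, with 65 of 143 cells (45.5%) and 72.1 CPM. Thinned to 5000 UMIs per cell, 38.2% of 393 B cell-like cells and 32.2% of 121 NK cell-like cells still had one, after 177 and 22 shallower cells were left out, whereas the share in cluster 1 was 2.91% of 1067. Mast-like cells had *Acp5* in 0 of 194 cells, which allows a share of up to 1.55%, at a median of 3496 UMIs per cell against 5700.5 in B cell-like cells. Among the genes closest to *Acp5* over the clusters were *Rps19* (0.809) and *Eif3f* (0.796), which encode proteins of the ribosome or of translation.

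*Ctsk*, which synovial fibroblasts are also known to express, was highest in stromal-like cells, at 507 CPM (486 to 529), in 174 of 231 cells (75.3%). Cluster 18 had 520 CPM, with 781 of its 782 UMIs in 1 *Acp5*-rich cell. Among macrophage-like clusters *Ctsk* was at 306 CPM in cluster 1 (241 without the *Acp5*-rich cells), 245 in cluster 7 (197 without), 213 in cluster 6 and 130 in cluster 4, in 18% to 23.8% of their cells. A share of 2.28% of B cell-like cells had a UMI. The share in these macrophage-like clusters was thus above that in B cell-like cells. *Arpin* (0.821), *Fuca1* (0.817) and *Snx21* (0.813) followed *Ctsk* most closely over the clusters.

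*Mmp9* was highest in neutrophil-like cells. The neutrophil-like cluster 9 held 70.7% of its UMIs, at 375 CPM (359 to 392), in 383 of 430 cells (89.1%). In cluster 1 without its *Acp5*-rich cells, 4 of 1137 cells (0.352%, 0.0959% to 0.898%) had a UMI, against 4 of 570 B cell-like cells (0.702%), although cells of cluster 1 were deeper, at a median of 14190.5 against 5700.5 UMIs. The share in these cells of cluster 1 was thus no higher than this background. In the macrophage-like cluster 2 it was higher, at 20 of 1103 cells (1.81%, 1.11% to 2.79%). The interval of the B cell-like share, 0.192% to 1.79%, overlaps this. In cells thinned to equal depth the shares were 1.11% and 0.254%. Macrophage-like clusters 4, 6 and 7 were lower, at 0.342%, 0.380% and 0.511%, and cluster 17 had 0 of 79 cells. The genes closest to *Mmp9* over the clusters were *Pglyrp1* (0.786) and *G0s2* (0.784), followed by *Tbc1d15* (0.766).

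*Dcstamp* marked the APC-like cluster 5 (*Ccl17*, *Cd209a*), which held 78.3% of its UMIs, at 84.6 CPM (80.6 to 88.8), in 245 of 855 cells (28.7%). Proliferating-like cells followed at 69.1 CPM, in 18 of 121 cells, of which 1 had 120 UMIs. No *Dcstamp* UMI was found in the 1206 cells of cluster 0, which allows a share of up to 0.249%, and 34 UMIs lay in 8 of 570 B cell-like cells. *Ear2* (0.860), *Skint3* (0.850) and *Ccl17* (0.844) followed it most closely over the clusters. *Ocstamp* was also found most in cluster 5, with 62 of 135 UMIs in 44 cells (5.15%), and in cluster 18, with 26 UMIs of which 18 were of 1 *Acp5*-rich cell. *Dcstamp* and *Ocstamp* were held together by 37 cells, 11.3% of the *Dcstamp* cells and 46.2% of the *Ocstamp* cells. No *Acp5*-rich cell lay in cluster 5, so the cells that held most *Dcstamp* were not those that held most *Acp5*.

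*Atp6v0d2* was highest in the macrophage-like cluster 4 (*Gpnmb*, *Apoe*), at 62.9 CPM (58.5 to 67.6), in 170 of 877 cells (19.4%), and the gene was one of the 10 that lead this cluster although it was left out of the clustering. Cluster 18 followed at 47.2 CPM (36.9 to 59.6), with all 71 UMIs in 1 *Acp5*-rich cell. The monocyte-like cluster 19 stood at 43.3 CPM (26.4 to 66.8), from 20 UMIs. Both intervals overlap that of cluster 4. Cluster 3 stood at 31.7 CPM and cluster 0 at 2.16, and 10 of 570 B cell-like cells (1.75%) had a UMI. *Anpep* (0.723), *Zfp524* (0.719) and *Aph1c* (0.718) followed it most closely. Its ubiquitous counterpart in the proton pump, *Atp6v0d1*, stood at 174 CPM (β-glucan) and 175 CPM (PBS) in the compartment, a log2 ratio of -0.01. *Itgb3* was highest outside the myeloid cells, at 51.5 CPM in the T cell-like cluster 13 (53 of 156 cells, 34.0%) and 51.0 in cluster 16 (36 of 91, 39.6%), whose intervals overlap. The levels were 18.7 CPM in NK cell-like, 14.9 in stromal-like and 12.7 in B cell-like cells. *Lrrc28* (0.912), *Hip1r* (0.910) and *Gm12216* (0.908) followed *Itgb3* most closely. *Oscar* reached at most 4 UMIs in any cluster other than cluster 1, where 10 UMIs lay in 4 cells.

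**Figure D3:**
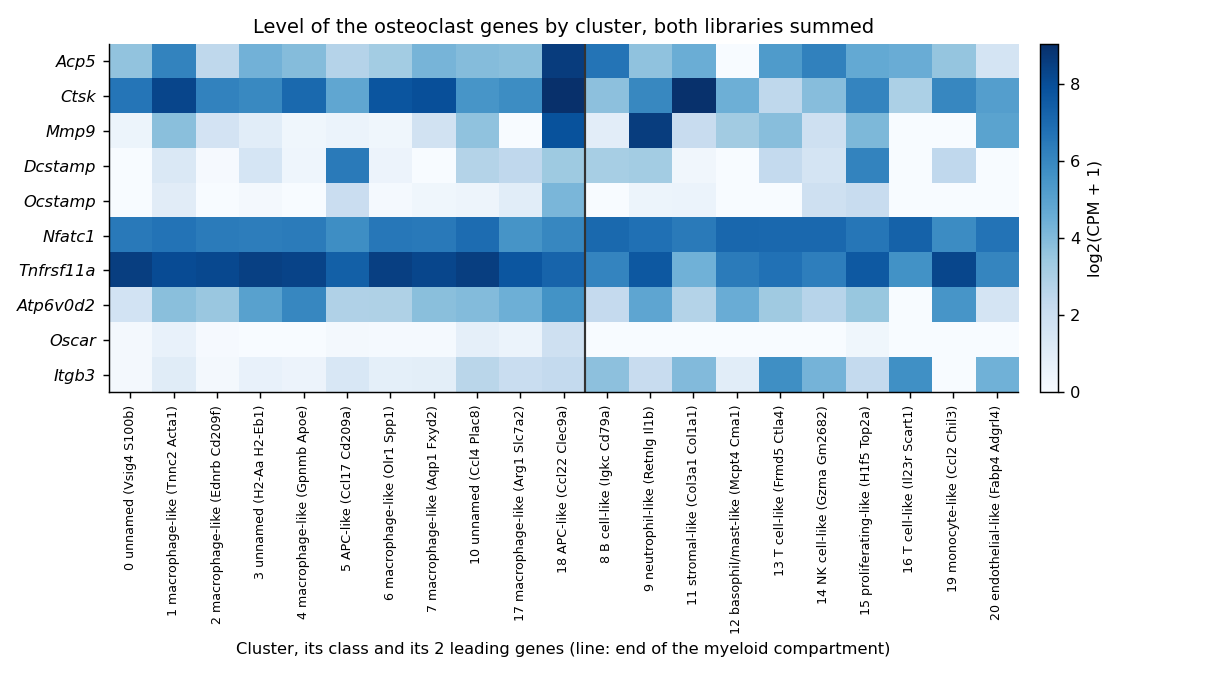
Level of each gene (rows) by cluster (columns, named by class and 2 leading genes, with the compartment left of the line), as log2(CPM + 1) with both libraries summed, to be read along each row. *Tnfrsf11a* is dark across the compartment, *Mmp9* in the neutrophil-like cluster, *Dcstamp* in cluster 5 and *Itgb3* in both T cell-like clusters, while the dark fields of cluster 18 in *Acp5*, *Ctsk* and *Mmp9* are nearly all 1 cell.

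The libraries were then set side by side over the compartment, to see whether pre-treatment with β-glucan went with a different level of these genes. *Tnfrsf11a* and *Nfatc1* were near equal, *Acp5*, *Ctsk*, *Mmp9* and *Dcstamp* were lower with β-glucan, and for *Acp5*, *Ctsk* and *Mmp9* the ratio was much nearer to 0 without the few *Acp5*-rich cells. A gene was counted as past the fold where its log2 ratio was at least 0.32 in size. Of 9812 genes whose mean over both libraries reached 5 CPM, 3.79% were past the fold upwards with β-glucan and 3.24% downwards. Among the 10 genes, 7 had this mean level, and 0 of these were past the fold upwards and 4 downwards. *Mmp9*, at 0.693 CPM (β-glucan) and 10.7 CPM (PBS), reached the mean level through the PBS library alone. It could therefore be counted downwards only, and the 4 and the median of the 7 include it. The median log2 ratio of β-glucan over PBS was -0.38 for the 7 and -1.21 for the 10, against 0.03 over all 9812 genes. Without the *Acp5*-rich cells, 6 genes had the mean level, 1 was past the fold upwards (*Atp6v0d2*) and 1 downwards (*Dcstamp*), and the median of the 10 was -0.12. *Acp5* and *Ctsk* came within the fold, whereas *Mmp9* left the count because it fell below the mean level, with its log2 ratio still at -0.81. Of the genes below that level throughout, *Ocstamp* was at -1.02, *Itgb3* at -0.73 and *Oscar* at -0.12. The counts past the fold thus changed when the 8 *Acp5*-rich cells of the compartment were left out, of which 1 was a β-glucan cell and 7 were PBS cells. These cells were chosen for their *Acp5* UMIs. Leaving them out therefore raises the ratio of *Acp5*, and of genes they hold at high levels, by construction.

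*Acp5* had 670 UMIs in 339 cells with β-glucan (10.3 CPM) and 2254 in 358 cells with PBS (37.5 CPM), a log2 ratio of -1.86 (-1.99 to -1.74). Without the *Acp5*-rich cells the sums were 554 and 558 UMIs, at 8.53 and 9.34 CPM, and the log2 ratio was -0.13 (-0.30 to 0.04), so that a difference among the other cells was not detectable at this depth. *Ctsk* had 7885 UMIs in 700 cells (121 CPM) and 9478 in 597 cells (158 CPM), a log2 ratio of -0.38 (-0.42 to -0.34), and without those cells both libraries stood at 119 CPM. *Mmp9* had 45 UMIs in 31 cells with β-glucan and 645 in 38 cells with PBS, a log2 ratio of -3.95 (-4.42 to -3.52), and 41 and 66 UMIs without the *Acp5*-rich cells, a log2 ratio of -0.81 (-1.41 to -0.22). For the resorption genes the pooled ratios thus moved toward 0 when those 8 cells were left out.

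*Dcstamp* was the exception. It had 571 UMIs in 107 cells with β-glucan (8.79 CPM) and 1158 in 174 cells with PBS (19.3 CPM), a log2 ratio of -1.13 (-1.28 to -0.99), and of -1.12 (-1.26 to -0.97) without the *Acp5*-rich cells. Cluster 5 held 93.5% and 94.7% of these UMIs, and it made up 7.69% (β-glucan) and 13.9% (PBS) of the compartment's cells. Within cluster 5, 90 of 353 β-glucan cells had a *Dcstamp* UMI (25.5%, 21.0% to 30.4%) and 155 of 502 PBS cells (30.9%, 26.9% to 35.1%), at 70.3 and 93.9 CPM. The log2 ratio here, -0.42 (-0.57 to -0.27), was smaller in size than that over the compartment. *Dcstamp* is itself one of the 10 genes that lead cluster 5, so the size of this cluster and the gene are not independent readouts. *Ocstamp* had 35 and 79 UMIs, a log2 ratio of -1.29 (-1.91 to -0.70), below the mean level for the count.

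*Nfatc1* had 5515 UMIs in 2778 β-glucan cells (84.9 CPM) and 4797 in 2232 PBS cells (79.9 CPM), a log2 ratio of 0.09 (0.03 to 0.14). *Tnfrsf11a* had 19521 in 3958 cells (301 CPM) and 16996 in 3048 cells (283 CPM), also 0.09 (0.06 to 0.12). Both ratios lay within the central 95% of all genes, from -0.38 to 0.37. *Atp6v0d2* had 1088 UMIs in 359 cells and 974 in 269 cells, at 16.7 and 16.2 CPM, a log2 ratio of 0.05 (-0.08 to 0.17). Without the *Acp5*-rich cells its sums were 1055 and 729 UMIs, at 16.2 and 12.2 CPM, and the log2 ratio was 0.41 (0.28 to 0.55). *Itgb3* had 34 and 78 UMIs and *Oscar* 6 and 19 in the compartment, and *Oscar* had 6 and 6 without the *Acp5*-rich cells.

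**Figure D4:**
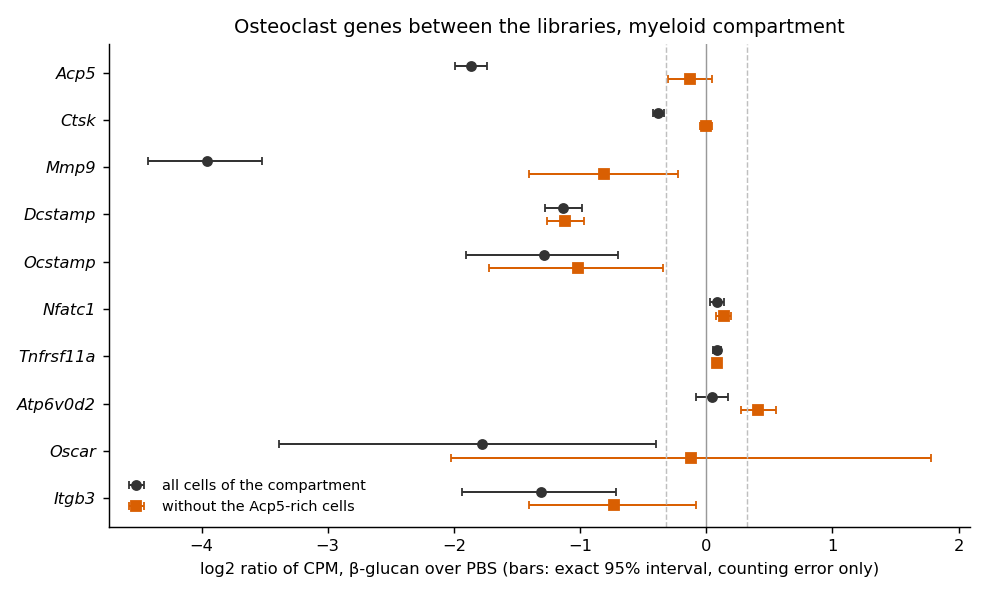
Log2 ratio of CPM, β-glucan over PBS, in the compartment for each gene (x axis), with all cells (dark circles) and without the *Acp5*-rich cells (orange squares). Bars are exact 95% intervals of counting error and dashed lines mark log2 ratios of -0.32 and 0.32. The squares of *Acp5* (-0.13) and *Ctsk* (0.00) lie near 0, that of *Dcstamp* (-1.12) stays with its circle, and that of *Atp6v0d2* (0.41) passes the upper line.

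Within clusters of at least 100 cells in each library, *Nfatc1* was higher with β-glucan in 7 and lower in 4 of 11, with log2 ratios from -0.26 to 0.26, and *Tnfrsf11a* also in 7 and 4, from -0.12 to 0.97. The highest ratios of *Tnfrsf11a* were in B cell-like cells (84.1 and 42.9 CPM, 0.97) and neutrophil-like cells (229 and 127 CPM, 0.85). Macrophage markers moved with both, at 3067 against 1557 CPM in B cell-like cells and 7313 against 4126 in neutrophil-like cells, and their part in these ratios was not tested. Within the macrophage-like clusters the receptor differed by 0.20 at most, in cluster 6 (373 and 325 CPM).

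*Ctsk* was lower with β-glucan in 7 of the 11 clusters and higher in 4, with every interval on its side of 0. It was lower in clusters 10 (log2 ratio -2.18), 7 (-0.68), 4 (-0.56), 5 (-0.50), 1 (-0.48), 6 (-0.44) and 0 (-0.27), and higher in clusters 2 (0.46), 3 (0.67), 8 (0.93) and 9 (0.94). The intervals count UMIs and not the cells that hold them. In cluster 8, 40 UMIs lay in 7 of 324 β-glucan cells (2.16%) and 15 in 6 of 246 PBS cells (2.44%). In cluster 9, 269 UMIs lay in 35 of 257 β-glucan cells and 56 in 9 of 173 PBS cells, with 41 of the 56 in 1 cell. Without the *Acp5*-rich cells the ratio was 0.00 (-0.09 to 0.09) in cluster 1, -0.09 (-0.21 to 0.02) in cluster 7 and -0.20 (-0.33 to -0.07) in cluster 0. In cluster 4 it was at 108 CPM in 84 β-glucan cells and 159 CPM in 74 PBS cells, and no *Acp5*-rich cell lay there. *Atp6v0d2* was higher with β-glucan in cluster 4, its main site, at 78.0 CPM (511 UMIs in 107 of its cells, 20.9%) against 44.2 CPM (233 UMIs in 63, 17.2%), a log2 ratio of 0.82 (0.59 to 1.05). It was lower in clusters 1 (-0.88) and 7 (-1.43), which hold 6 of the *Acp5*-rich cells, and without these the ratios were 0.31 (-0.33 to 0.97) and -0.09 (-0.72 to 0.54). *Acp5* was lower in clusters 1 (-2.72), 7 (-3.32) and 0 (-0.75), which hold such cells, and in cluster 6 (-0.63), which holds none, and its intervals in clusters 2, 3, 4 and 5 included 0. Without those cells the *Acp5* intervals in clusters 1 (-0.97 to 0.17), 7 (-1.53 to 0.18) and 0 (-0.61 to 0.24) included 0 as well. *Mmp9* in cluster 1 gave the largest ratio in size of the 10 genes in these clusters, -4.71 from 9 and 209 UMIs, of which 5 and 1 remained without the *Acp5*-rich cells.

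Clusters 9 and 10 also gave wide ratios, some of them from few UMIs, between cells that differed in other ways as well. In the neutrophil-like cluster 9, *Acp5* had 60 and 3 UMIs and *Atp6v0d2* 142 and 4, higher with β-glucan, and *Mmp9* was at 269 CPM in 229 of 257 β-glucan cells and 640 CPM in 154 of 173 PBS cells, with a log2 ratio between -1.38 and -1.12. There the neutrophil markers stood at 17888 (β-glucan) and 32931 CPM (PBS), the median depth was 9607 and 4577 UMIs, and 10.5% and 19.7% of the cells had one of the highest Scrublet scores. The share of cells with *Mmp9*, 89.1% and 89.0%, was alike. In cluster 10, *Acp5* had 4 and 35 UMIs, *Atp6v0d2* 3 and 37 and *Mmp9* 7 and 26, beside neutrophil markers at 186 and 5236 CPM. The part of these marker differences in the ratios was not tested.

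**Figure D5:**
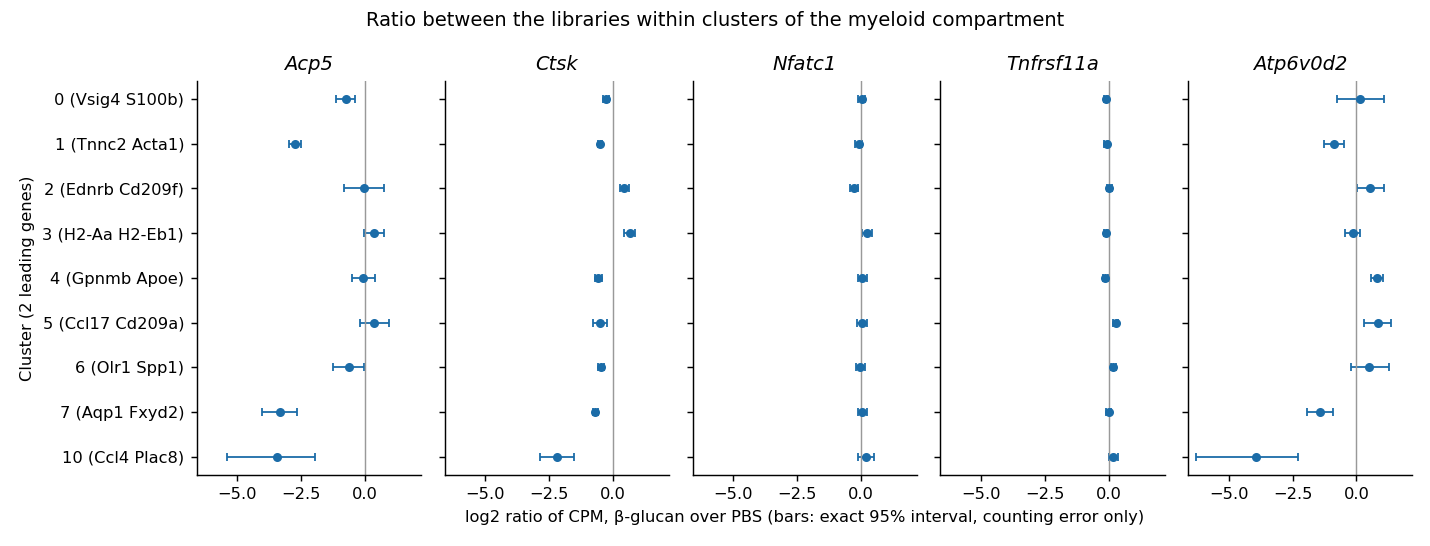
Log2 ratio of CPM, β-glucan over PBS (x axis), for 5 genes (panels) within the clusters of the compartment that have at least 100 cells in each library (y axis, with their leading genes). Bars are exact 95% intervals of counting error. The points of *Nfatc1* and *Tnfrsf11a* stay near 0, *Acp5* lies far left in clusters 1, 7 and 10, and *Atp6v0d2* lies right of 0 in cluster 4 (0.82) and left of it in clusters 1 and 7.

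A further question was how many cells held several of the genes at once. At least 1 of the 10 was held by 5229 β-glucan cells (91.8%) and 4115 PBS cells (90.4%), mostly *Tnfrsf11a* and *Nfatc1*, which 4845 cells held together. At least 5 were held by 56 β-glucan cells (0.983%, 0.743% to 1.27%) and 37 PBS cells (0.813%, 0.573% to 1.12%), shares whose intervals overlap. These cells were deep, with medians of 36203 and 31733 UMIs, and 12 and 7 of them were among the cells of highest Scrublet score. By cluster, 26 lay among neutrophil-like cells (23 with β-glucan), 19 in cluster 5 and 14 in cluster 1. Thinned to 5000 UMIs, 4 β-glucan and 7 PBS cells held at least 5 of the genes. Few cells, then, held many of the genes, and depth moved their number. *Acp5* and *Ctsk* shared 241 cells, 20.2% of the *Acp5* cells and 15.3% of the *Ctsk* cells. At least 5 UMIs of both were found in 18 cells, of which 10 were the *Acp5*-rich cells.

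The pathway list of 55 genes covers ligands, receptors, signalling, transcription factors, inhibitors, resorption and fusion, and 49 reached a mean of 5 CPM in the compartment. Of these, 4 were past the fold upwards with β-glucan and 6 downwards, against 3.79% and 3.24% of all genes, and their median log2 ratio was 0.05 against 0.03. By role, 0 of 7 receptors, 0 of 13 signalling genes and 0 of 9 genes of the acid and resorption machinery were past the fold in either direction. Of 7 transcription factors 3 were higher and 1 lower, of 8 inhibitors 1 was higher and 2 lower, and of 4 fusion genes 0 were higher and 2 lower. The 4 upwards include *Prdm1* and the 6 downwards include *Csf1*, each of which reached the mean level through 1 library alone.

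Among the 5 highest, *Mitf*, a transcription factor that acts with PU.1 and NFATc1 on osteoclast genes, was at 654 CPM in 4272 β-glucan cells (93.0%) and 372 CPM in 3209 PBS cells (88.7%), a log2 ratio of 0.82. It was higher in 9 of the 9 clusters of the compartment with at least 100 cells in each library, which are the clusters counted here. Clusters 17 and 18 fall short of that limit. *Mef2c*, also a transcription factor, was at 510 and 371 CPM (0.46) and higher in 9 of 9. *Bcl6*, an inhibitor of osteoclast genes, was at 71.7 and 53.1 CPM (0.43) and higher in 8 of 9. *Prdm1*, which represses such inhibitors, was at 6.13 and 4.88 CPM (0.33) and at 0.59 without the *Acp5*-rich cells, and it was higher in 4 and lower in 5 of 9 clusters. *Prdm1* reached the mean of 5 CPM through the β-glucan library alone, so it could be counted upwards only. *Irf8*, an inhibitor, was at 100 and 81.0 CPM (0.31), within the fold. Both an activator and an inhibitor of the lineage were therefore among the genes past the fold upwards.

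At the other end, *Csf1*, the growth factor of macrophages and osteoclast precursors, had 187 UMIs in 93 cells with β-glucan and 678 in 116 cells with PBS, a log2 ratio of -1.97, and 10 cells held 54.0% and 75.1% of them. *Csf1* reached the mean of 5 CPM through the PBS library alone, so it could be counted downwards only. Without the *Acp5*-rich cells it stood at 2.88 CPM (β-glucan) and 11.2 CPM (PBS). It was highest in cluster 10, at 207 CPM, where the neutrophil markers differ as given above. *Adam8*, a fusion gene, was at 55.5 and 83.9 CPM (-0.60) and highest in cluster 5. The inhibitors *Nr4a1* (55.9 and 79.3 CPM, -0.50) and *Tnfaip3* (41.5 and 52.8 CPM, -0.35) were both highest in cluster 6. *Cd9*, a tetraspanin of fusion, was at 764 and 965 CPM (-0.34) and highest in cluster 17, which is PBS cells alone. The RANKL gene *Tnfsf11* had 5 UMIs in β-glucan cells and 0 in PBS cells of the compartment, and its decoy receptor *Tnfrsf11b* 0 in both.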

How the data were processed

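CD45+CD11b+ synovial cells of 2 groups (β-glucan, PBS) were measured with 10x Genomics 3′ v3.1 chemistry, 1 library per group. The authors deposited whole-number UMI counts per gene and cell barcode without normalization, before any filter on cells of their methods. Per the labels and the submitters' processing notes these were made with Cell Ranger 7.0.0 on GRCm39 (the notes also name mm10). Whether intronic reads were counted is not given in the sources used here. The libraries held 81611849 and 73874602 UMIs, which limits precision for genes of few UMIs. Of 12956 barcodes, 10249 passed (at least 500 genes, at most 10% mitochondrial UMIs), and 7 barcode sequences occurred in both libraries.

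Cells were clustered with Seurat 5.3.0 after sctransform 0.4.2, under R 4.3.3 (3000 variable genes, of which 32 of the genes listed here were left out, 30 principal components, 20 neighbours, resolution 0.7). A cluster was named X-like if at least 3 markers of a fixed list were each detected in 25% of its cells and other classes' genes did not lead it, and unnamed clusters 0, 3 and 10 were counted to the compartment. Scrublet (scanpy 1.11.5) marked 1 cell in each library, which is too few to have worked, so doublets were kept, and leaving out the 328 and 210 cells of highest score was an alternative. UMIs were summed per library and cluster as CPM. Ratios carry conditional binomial, levels Poisson and shares Clopper-Pearson exact intervals at 95% (Python 3.11.15, scipy 1.17.1, numpy 2.4.6, pandas 2.3.3). A share of 0 is given the limit that 3 counts allow. The intervals were tested on simulated data. With 1 library per group no test across samples was made.

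The genes and lists were chosen with earlier results of these data known. Named genes are the 10 genes, *Atp6v0d1*, the 5 highest and 5 lowest ratios of the pathway list among genes of at least 5 CPM, and the 3 genes of highest Pearson correlation with each gene of at least 200 UMIs across clusters. *Slc9b2*, *Lyz2* and *C1qb* and the limit of 30 *Acp5* UMIs were chosen after values were seen. Some genes that this rule names are not reported here. Protein identity between related genes was planned and not made here. Alternatives were other filters on cells, resolutions, clusterings, weights, totals (with TMM scaling of edgeR 4.0.16), thinning to 5000 UMIs, minimum levels and folds, and leaving out cells.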

Additional observations from a re-analysis of the deposited data

Results flagged for a closer look

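Barcodes that failed the filter on cells are used in no comparison, and they were looked through for the same 10 genes. UMIs of at least 6 of the genes were found in 5 of the 2707 barcodes left out (0.185%, 0.0600% to 0.431%), and in 19 of the 10249 cells kept (0.185%). Of the 5, 3 were of the β-glucan library and 2 of the PBS library, at mitochondrial shares from 13.2% to 70.0%. At least 30 *Acp5* UMIs were in 2 of them. The one with β-glucan had 39 *Acp5*, 32 *Ctsk*, 12 *Mmp9* and 14 *Atp6v0d2* UMIs at 28.1% mitochondrial UMIs, and the one with PBS had 133, 136, 15 and 54 at 13.2%. The filter thus removed 1 *Acp5*-rich barcode from each library, beside the 2 and 8 it kept. The barcodes left out had a median of 1382 UMIs.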

How the results depend on the processing

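Of 121 values of the main comparisons under an alternative, 91 kept their value within the range set, and of 199 values of single genes 142 did. The sign changed in 5 values of single genes. *Ctsk* came to a log2 ratio of 0.0150 with the stricter filter (1000 genes or more, 5% mitochondrial UMIs or less), and to 0.000469 without the *Acp5*-rich cells, *Oscar* to 0.68 when thinned, *Nfatc1* to -0.0029 in macrophage-like clusters alone and *Atp6v0d2* to -0.08 with equal weight per cluster. The median log2 ratio of the 10 genes was -0.46 without a filter, -0.44 with the stricter filter, -0.59 in all cells of the sort, -0.87 in macrophage-like clusters alone, -0.85 with equal weight per cell, -0.31 per cluster, -0.54 thinned and -0.12 without the *Acp5*-rich cells. The number past the fold upwards became 1 with the stricter filter and without the *Acp5*-rich cells. These settings overlap, because the stricter filter also left out most of the *Acp5*-rich cells, which had mitochondrial shares of up to 9.92%. The number downwards became 1 with the stricter filter, without the *Acp5*-rich cells and without the 10 cells with most UMIs of each gene, 2 in macrophage-like clusters, with equal weight per cell, without the cells of highest Scrublet score and at a minimum of 20 CPM, and 7 with no minimum. In the pathway list, 2 were higher when thinned and 3 lower with the listed genes kept in the clustering, and at 1.5-fold 1 was higher and 2 were lower. By CPM alone, 7 of the 10 genes were highest in a cluster of the compartment, and 5 with the listed genes kept in the clustering. *Tnfrsf11a* was then highest in a cluster outside it, led by *Plac8* and *Chil3* (386 CPM), and *Dcstamp* in proliferating-like cells (67.0 CPM). Cells with at least 5 of the genes numbered 4 (β-glucan) and 7 (PBS) when thinned, 14 and 13 at 2 UMIs or more per gene, 242 and 192 for at least 4 genes and 10 and 9 for at least 6. Over these settings the log2 ratio of *Dcstamp* ran from -1.72 to -0.52, that of *Acp5* from -2.29 to -0.13, that of *Mmp9* from -4.60 to -0.64, that of *Atp6v0d2* from -0.08 to 0.50 and that of *Tnfrsf11a* from 0.02 to 0.15. Leaving out the 10 cells with most UMIs gave no value for *Oscar* and so no median of the 10. The alternatives without the *Acp5*-rich cells and without cluster 17 were chosen after seeing the data, and the latter changed the counts of the pathway list to 3 higher and 5 lower. Beyond the cells and genes left out by construction, the cause was not tested. No paired analysis was possible because each group is 1 library, and for the same reason no replicate could be left out. Depth limits *Oscar*, *Ocstamp* and *Itgb3* most.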
